A study of Homo sapiens with 12 samples.

Results

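The response of T47D cells to 0.1 nM 17β-estradiol (E2) alone was measured by RNA-seq as the comparison of the 3 estradiol libraries with the 3 vehicle libraries, replicates a, b and c of each, which are 6 of the 12 libraries of the series. T47D is an established estrogen receptor-positive luminal breast cancer cell line. All 4 groups of the series came from this line, were kept 48 hours in RPMI with 5% charcoal-stripped serum, which removes steroids, and then 24 hours without serum before treatment with vehicle, 10 nM of the aromatase inhibitor anastrozole, 0.1 nM E2 or both agents. The sample labels give 12 hours of treatment and the methods of the study give 24 hours, so the exposure time is uncertain. Of 25370 genes in the count table, the 21132 with a read in any of the 12 libraries were tested, and 794 of those were at 0 in all 6 libraries compared here.

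Estradiol binds the nuclear receptors ERα (ESR1) and ERβ (ESR2). The bound receptor dimerises, attaches to estrogen response elements or to other DNA-bound factors, and recruits coregulators that raise or lower transcription of nearby genes. In luminal breast cancer cells the textbook targets include the progesterone receptor PGR, the coregulator GREB1 and genes of cell cycle entry, and ERα lowers transcription of its own gene and of several growth factor receptors.

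Between 12383933 and 17009776 reads per library fell on genes in the 6 libraries, between 18078 and 18393 genes were detected, and 3 counts corresponded to between 0.176 and 0.242 CPM (counts scaled to library size). Replicates scattered little, with a common biological coefficient of variation of 0.0319, and the methods speak of 3 independent experiments for gene expression data in general, while neither they nor the labels say how the sequenced replicates were grown, so the p-values measure the spread between these libraries, which may be partly technical. The luminal identity was clear in the markers. The 14 luminal markers summed to between 13744 and 13923 CPM with vehicle and between 13061 and 13251 CPM with E2, whereas the sums of 7 basal markers lay between 20.5 and 26.9 CPM, of 6 immune markers between 8.04 and 14.4 CPM, and of 4 endothelial markers between 0.0787 and 0.621 CPM. The 8 fibroblast markers summed to between 83.7 and 96.9 CPM, most of it COL1A1, and FAP was at 0. CYP19A1, the aromatase gene, was at 0 in the 3 vehicle libraries and at 0.0591 CPM in estradiol replicate b alone, under the level of 3 counts.

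A pair of features of the libraries separated vehicle from E2 across many genes. First, the fold changes followed the GC content of the exons. The Spearman correlation of the log2 fold change with GC content was -0.548 across genes of at least 3 log2 CPM, which are not independent replicates. In the quintile of genes lowest in GC content (31 to 40.6%) 552 genes were raised and 19 lowered, and in the highest quintile (57.5 to 74.7%) 35 were raised and 649 lowered. Subtracting the fitted GC trend library by library brought the correlation to 0.00144, and values after that step are called GC-adjusted. They are given for a named gene where the adjustment ended or made a call or moved a called value by over 1.5 times. Over the 12 libraries the GC trend did not separate those with E2 from those without. The same correlation for each library's deviation from the mean of all 12 lay between -0.5 and -0.323 with E2 alone, between 0.0606 and 0.467 with vehicle, between 0.339 and 0.428 with the combination, which also holds E2, and between -0.611 and 0.258 with anastrozole. Secondly, the vehicle libraries stood apart from all others. The 12 libraries were compared over 11041 genes that averaged at least 3 log2 CPM in the 6 vehicle and estradiol libraries. The 3 vehicle values lay below those of the 9 other libraries for 412 genes (3.73%) and above them for 464 (4.20%). The same count, both directions together, was 7.93% for vehicle, 5.53% for E2, 3.71% for the combination and 2.87% for anastrozole. A difference between E2 and vehicle may therefore also be present between anastrozole and vehicle, and the estradiol libraries were also compared with the 3 anastrozole libraries. Both comparisons use the same estradiol libraries and are not independent. The paper that reported these data proposes that anastrozole also acts as an ERα ligand, with effects on genes largely shared with E2. A gene that did not pass against anastrozole may therefore still respond to E2. Whether the position of the vehicle libraries or the GC trend was biological or technical was not tested.

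**Figure D1:**
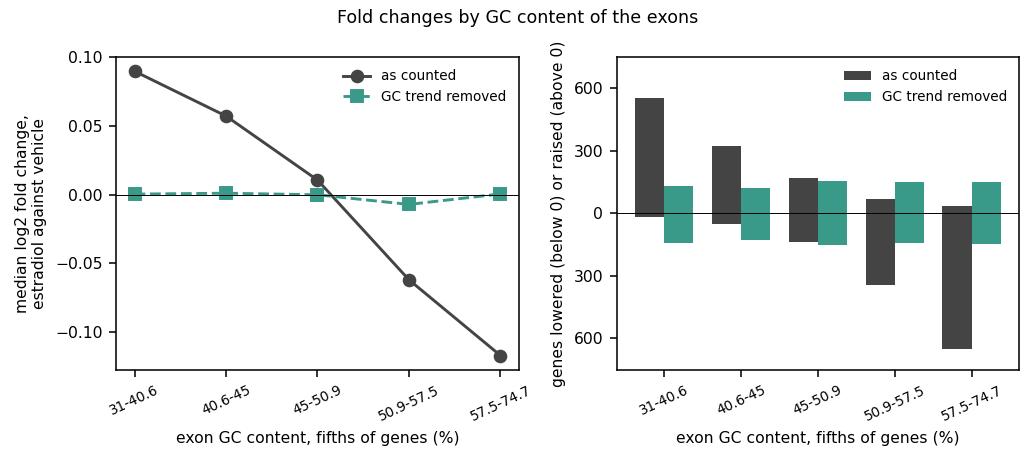
Left, median log2 fold change of estradiol against vehicle in quintiles of genes by exon GC content (%), as counted (circles) and with the GC trend removed (squares). Right, numbers of genes raised (above 0) and lowered (below 0) at an adjusted p under 0.05 in each quintile. As counted, the median went from 0.0899 in the lowest to -0.117 in the highest quintile.

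Many genes differed between E2 and vehicle by small amounts. Of the 21132 genes tested, 2537 (12.0%) passed an adjusted p of 0.05 (edgeR's quasi-likelihood F test with Benjamini-Hochberg adjustment, 2-sided), of which 1280 (6.06%) were raised and 1257 (5.95%) lowered. "Raised" and "lowered" are used below only of genes past this threshold. The median absolute log2 fold change of these genes was 0.205, 760 changed at least 1.2-fold, 123 at least 1.5-fold (97 raised, 26 lowered) and 38 at least 2-fold. Only 11 raised and 8 lowered genes combined a 1.5-fold change with at least 3 log2 CPM. After GC adjustment 847 genes (4.01%) were raised and 754 (3.57%) lowered, and 1134 genes passed in both analyses, all in the same direction. A further 467 passed only after GC adjustment, so the counts of a list before and after it need not cover the same genes. Of the 11044 genes of at least 3 log2 CPM (11041 before the average was rounded), 10.5% were raised and 11% lowered, and 6.47% and 6.63% after GC adjustment. These are the shares to set beside lists of mostly well-detected genes. Of the 123 genes with at least a 1.5-fold change, 103 passed in both. Against anastrozole, 280 genes (1.33%) passed, 149 (0.705%) higher and 131 (0.620%) lower with E2, and this number depended on single libraries. It was 107 without estradiol replicate b, 124 without estradiol replicate c, 177 without estradiol replicate a and 134 without anastrozole replicate b. After GC adjustment 257 genes were higher and 238 lower than with anastrozole.

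**Figure D2:**
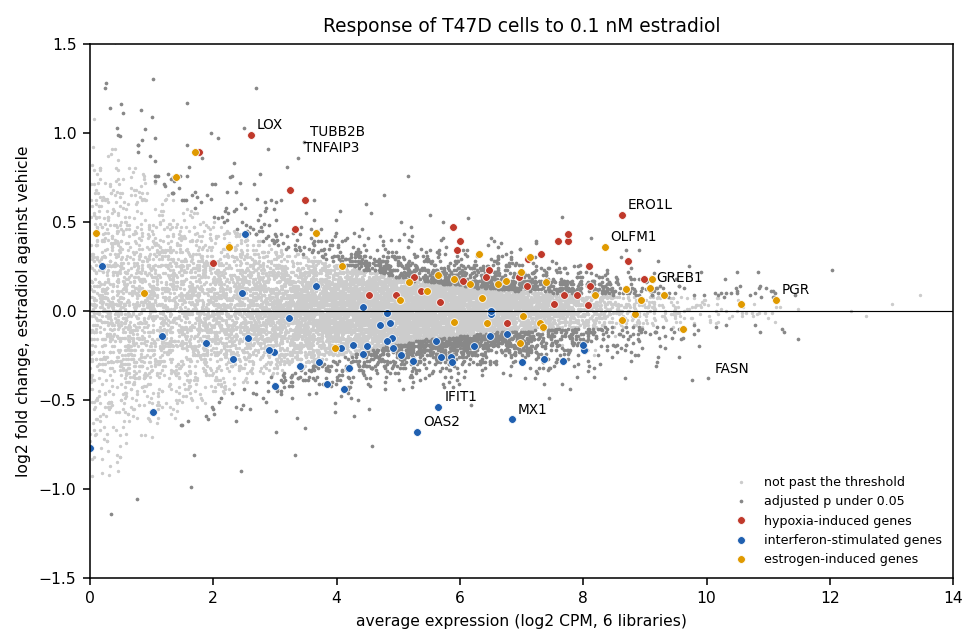
Log2 fold change of estradiol against vehicle by average expression (log2 CPM of 6 libraries) for genes above 0 log2 CPM and with a log2 fold change within 1.5 of 0. Coloured points are members of 3 gene lists, dark grey points other genes with an adjusted p under 0.05. Among the labelled genes, ERO1L and LOX of the hypoxia-induced list lie above 0 and OAS2, MX1 and IFIT1 of the interferon-stimulated list below it.

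The largest rises among well-detected genes included a tubulin, regulators of NF-κB and an ERBB ligand. CPM are given on 1 scale for all 12 libraries, and fold changes come from the fit of the 6. TUBB2B, a β-tubulin gene, measured 8.33, 7.07 and 7 CPM with vehicle and 14.3, 14.5 and 14.6 CPM with E2. The groups were far apart, and the log2 fold change was 0.95 ± 0.12 (SE, adjusted p = 2.6e-13), with 0.99 after GC adjustment. Against anastrozole (9.38, 8.69 and 9.08 CPM) the estradiol libraries were also higher, by 0.66 ± 0.12 on the log2 scale (adjusted p = 9.1e-06). TNFAIP3, which encodes the ubiquitin-editing NF-κB inhibitor A20, rose from 7.52, 7.38 and 6.85 to 14, 12.8 and 12.8 CPM (0.86 ± 0.12, adjusted p = 2.5e-10). Its anastrozole values of 10.2, 13.5 and 10.8 CPM overlapped those with E2, and that difference did not pass (0.20 ± 0.11, adjusted p = 0.66). BIRC3, the NF-κB-dependent inhibitor of apoptosis cIAP2, rose from 27.3, 28.3 and 23.3 to 43.8, 44.4 and 45.4 CPM (0.76 ± 0.07, adjusted p = 9.1e-28) and also exceeded anastrozole (0.35 ± 0.07, adjusted p = 0.00065). TGFA, the EGF receptor ligand transforming growth factor-α, rose from 21.6, 21.1 and 20.5 to 36.0, 30.8 and 32.9 CPM (0.65 ± 0.08, adjusted p = 2.4e-15). Without overlap it lay above its anastrozole values too (27.5, 26.4 and 25 CPM, 0.33 ± 0.08, adjusted p = 0.0082). RORA, a nuclear receptor (0.68), TFCP2L1, a transcription factor (0.62), and C1orf21 (0.81) were further genes among the 10 largest rises.

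Falls of similar size among well-detected genes were led by CCDC154 (log2 fold change -0.81 ± 0.12), by GNMT and by OAS2, described with the interferon genes. A gene on the other strand overlaps 25% of the exon bases of CCDC154. GNMT, glycine N-methyltransferase, which consumes S-adenosylmethionine, went from 30.6, 29.6 and 29.7 CPM with vehicle to 19.7, 16.0 and 17.8 CPM with E2. These groups were separate (-0.76 ± 0.08, adjusted p = 1.1e-17), and the anastrozole libraries lay between them at 21.8, 21.4 and 21.9 CPM, with a difference from E2 of -0.30 ± 0.09 that did not pass as counted (adjusted p = 0.074) and passed after GC adjustment (-0.29, adjusted p = 0.037). Among abundant genes, FASN, the fatty acid synthase gene, fell from 1205, 1156 and 1202 CPM to 913, 925 and 900 CPM (-0.38 ± 0.03, adjusted p = 4.8e-38). The anastrozole values of FASN, 854, 962 and 1102 CPM, spread around those with E2 (-0.10 ± 0.08, adjusted p = 0.82). AMIGO3 (-0.60) and ZNF812 (-0.66) also belonged to the 10 largest falls among genes of at least 3 log2 CPM with separate groups. However, 99.5% and 91.7% of their exon bases overlap another gene on the same strand, so their counts are uncertain. GC adjustment reduced the falls of CCDC154 and GNMT to -0.66 and that of FASN to -0.23, and these 3 genes still passed.

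Genes known to be induced by estrogen were mostly raised where they passed the test, also against anastrozole. Of 40 estrogen-induced genes, 17 (42.5%) were raised and 2 (5.0%) lowered, against 6.06% and 5.95% of all genes and 10.5% and 11% of genes of at least 3 log2 CPM, which 34 of the members were, with a median log2 fold change of 0.12 where the median over all genes was 0.0. With GC adjustment 15 were raised and 2 lowered, of which 14 and 1 had the same call as counted. Against anastrozole 15 were higher and none lower (19 and none after GC adjustment), with a median of 0.18. The shares of all genes in that comparison were 0.705% higher and 0.620% lower. Between 13 and 17 were raised against vehicle when 1 library was left out. CTSD and TFF3, the members lowered as counted, both lost their calls without vehicle replicate a or estradiol replicate a. Of these 34 members, 2 had all vehicle values under those of the 9 other libraries, so most members did not have the vehicle libraries at one extreme. The leading member was OLFM1, a secreted olfactomedin-domain glycoprotein gene (chr9:137967268-138013026, plus strand, hg19), at 287, 276 and 296 CPM with vehicle, 274, 270 and 265 CPM with anastrozole, 364, 374 and 366 CPM with E2 alone and 355, 342 and 357 CPM with the combination. Both groups with E2 were above both groups without it in every library. This amounted to 0.36 ± 0.03 over vehicle on the log2 scale (adjusted p = 6.8e-25) and to 0.44 ± 0.04 over anastrozole (adjusted p = 1.8e-25).

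Among members raised against vehicle, GREB1, RAPGEFL1, IGFBP4 and SIAH2 also had both groups with E2 above both groups without it in every library. They are examples, and the members with this pattern were not counted. GREB1, an ERα coregulator (chr2:11622467-11782914, plus strand, hg19), stood at 508, 532 and 525 CPM with vehicle and 565, 580 and 564 CPM with E2, with anastrozole lower at 470, 466 and 482 CPM. Its rise was small but clear of the replicate spread (0.13 ± 0.03, adjusted p = 0.00073; 0.26 ± 0.04 against anastrozole, adjusted p = 2.1e-09). RAPGEFL1, a Rap guanine nucleotide exchange factor-like gene, rose from 127, 127 and 124 to 160, 154 and 153 CPM (0.30 ± 0.04, adjusted p = 4.8e-12). IGFBP4, which binds insulin-like growth factors, rose from 516, 508 and 531 to 591, 599 and 576 CPM (0.18 ± 0.03, adjusted p = 1.2e-07), and SIAH2, a ubiquitin ligase, from 112, 120 and 121 to 133, 140 and 138 CPM (0.22 ± 0.04, adjusted p = 3.7e-06). None of these 3 overlapped between vehicle and E2, and each was also higher than with anastrozole (0.33, 0.18 and 0.18, adjusted p = 9e-11, 0.00042 and 0.0071). GC adjustment enlarged them to 0.39, 0.31 and 0.30. At low abundance, WISP2, a secreted CCN family gene, rose from 2.51, 2.13 and 1.87 to 4.02, 3.60 and 4.44 CPM (0.89 ± 0.21, adjusted p = 0.00066), and EGR3, an early growth response transcription factor, from 2.26, 1.60 and 1.71 to 3.15, 3.66 and 2.50 CPM (0.75 ± 0.23, adjusted p = 0.014). The EGR3 call was lost without vehicle replicate b or c (adjusted p = 0.076 in each) or estradiol replicate b (0.17), and neither gene passed against anastrozole (WISP2 0.23, EGR3 0.055), though EGR3 did after GC adjustment (adjusted p = 0.03).

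Several classical targets did not pass the test against vehicle. PGR, the progesterone receptor gene, was abundant at 2038, 2352 and 2196 CPM with vehicle and 2302, 2254 and 2322 CPM with E2, and the groups overlapped (0.06 ± 0.03, adjusted p = 0.1), with a call only when vehicle replicate b was left out. Against anastrozole (1952, 2025 and 2034 CPM) PGR was higher with E2 (0.19 ± 0.03, adjusted p = 7.3e-06). The chemokine gene CXCL12 had all estradiol values above all vehicle values without passing, with 0.09 ± 0.03 (adjusted p = 0.073) against vehicle and 0.22 ± 0.04 (adjusted p = 1e-05) against anastrozole. TFF1, the trefoil peptide pS2, was nearly silent at 2.10, 1.22 and 1.63 CPM with vehicle and 1.34, 2.24 and 1.60 CPM with E2, and its change of 0.10 ± 0.28 has an error too wide to tell a moderate induction from none. MYC (0.11 ± 0.06, adjusted p = 0.28, groups separate), the cyclin D1 gene CCND1 (-0.07 ± 0.04, adjusted p = 0.3) and the unfolded protein response factor XBP1 (0.04 ± 0.03, adjusted p = 0.49) did not pass in either comparison. The lysosomal protease CTSD was lowered as counted (-0.10 ± 0.03, adjusted p = 0.0092) and had a value of 0.04 (adjusted p = 0.45) after GC adjustment and did not pass without replicate a or c of either group (0.056 to 0.13), so its direction was not settled. A second gene overlaps 24% of its exon bases on the other strand.

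**Figure D3:**
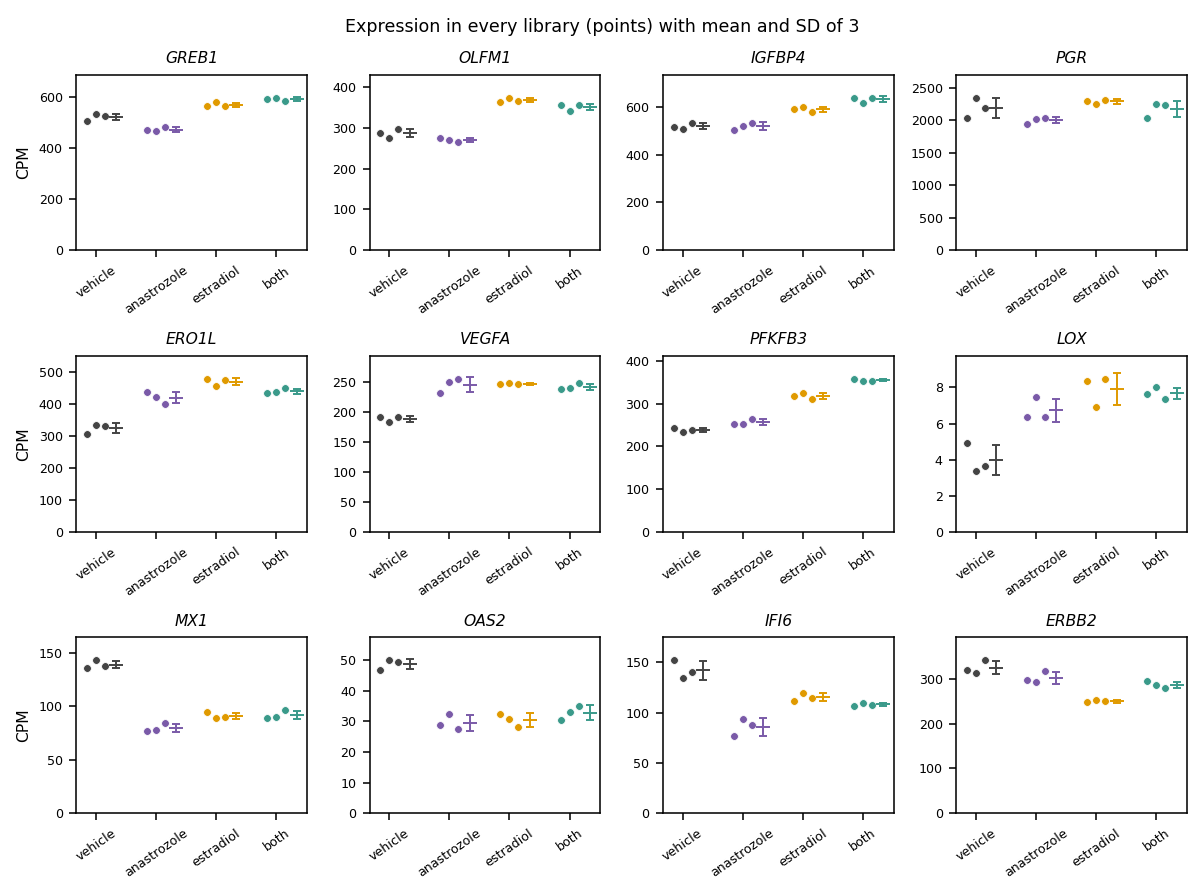
CPM of 12 genes in every library of the 4 groups (points), with the mean and SD of 3 libraries (bars) and axes starting at 0. GREB1, OLFM1 and IGFBP4 were higher in both groups with E2, LOX and VEGFA were low in vehicle alone, and MX1 and OAS2 were high in vehicle alone.

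The receptor itself and factors that act with it had more lowered than raised members. Of 26 estrogen receptors and coregulators, 3 (11.5%) were raised and 9 (34.6%) lowered with a median of -0.09. Among all genes of at least 3 log2 CPM, 10.5% were raised and 11% lowered. After GC adjustment none of the 26 was raised and 5 were lowered. Only 1 was raised without vehicle replicate a or c or estradiol replicate b or c. ESR1 (chr6:151977826-152450754, plus strand, hg19) measured 180, 188 and 179 CPM with vehicle and 169, 166 and 163 CPM with E2. All estradiol values were below all vehicle values (-0.14 ± 0.04, adjusted p = 0.0038), while the difference from anastrozole did not pass as counted (-0.12 ± 0.04, adjusted p = 0.18) and passed after GC adjustment (-0.12, adjusted p = 0.025). FOXA1, the pioneer factor that opens chromatin for ERα, fell from 347, 353 and 369 to 314, 331 and 322 CPM (-0.14 ± 0.03, adjusted p = 0.00033), and against anastrozole it passed after GC adjustment alone (-0.11, adjusted p = 0.019). SPDEF, a luminal ETS factor, showed the largest fall, from 256, 246 and 256 to 194, 180 and 186 CPM (-0.44 ± 0.04, adjusted p = 1.1e-31), and was also lower than with anastrozole (-0.22 ± 0.04, adjusted p = 4.2e-05). In the other direction, the corepressor NRIP1 rose from 156, 165 and 157 to 172, 177 and 184 CPM (0.16 ± 0.04, adjusted p = 0.00087), but not after GC adjustment (0.08, adjusted p = 0.18). ESR2 was scarce at 1.46, 2.51 and 1.48 CPM with vehicle and 3.31, 2.6 and 2.85 CPM with E2, and its call (adjusted p = 0.046) was lost after GC adjustment (adjusted p = 0.075) and without any single library other than vehicle replicate b (0.054 to 0.24). GPER1, the membrane estrogen receptor, did not pass (-0.25 ± 0.31, adjusted p = 0.7), and GATA3 had a value of -0.01 ± 0.03 (adjusted p = 0.88).

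Hypoxia-induced genes formed the list with the largest share of raised members, and for most well-detected members vehicle was the lowest of the 4 groups in every library. Of 37 hypoxia-induced genes, 25 (67.6%) were raised and none lowered (median 0.23). Among genes of at least 3 log2 CPM, 10.5% were raised and 11% lowered, and 6.47% were raised after GC adjustment. In the list 27 (73.0%) were raised after GC adjustment (median 0.20), and 22 to 25 when 1 library was left out. Against anastrozole 4 were higher and none lower (median 0.05), where 0.705% and 0.620% of all genes were. After GC adjustment 7 members were higher and 1 lower (median 0.04). For 20 of the 33 members of at least 3 log2 CPM, all vehicle values lay below those of the 9 other libraries, and for none above, against 3.73% of all such genes. ERO1L, an endoplasmic reticulum oxidase that drives disulfide formation (chr14:53106633-53162618, minus strand, hg19), measured 307, 336 and 331 CPM with vehicle, 437, 421 and 402 CPM with anastrozole, 479, 457 and 477 CPM with E2 alone and 436, 437 and 450 CPM with the combination. The vehicle libraries were the low group (0.54 ± 0.03, adjusted p = 1.4e-58), and E2 exceeded anastrozole by a smaller margin (0.16 ± 0.04, adjusted p = 0.0049). VEGFA, the vascular endothelial growth factor (chr6:43737921-43754224, plus strand, hg19), rose from 191, 183 and 192 to 246, 248 and 246 CPM (0.39 ± 0.04), with anastrozole at 231, 250 and 255 CPM. E2 and anastrozole overlapped for VEGFA (0.00 ± 0.04, adjusted p = 1.0).

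Other members repeated the VEGFA pattern. LOX, the collagen cross-linking lysyl oxidase, rose 1.98-fold from 4.93, 3.35 and 3.66 CPM to 8.36, 6.91 and 8.47 CPM (0.99 ± 0.15, adjusted p = 1.5e-08) and did not differ significantly from anastrozole (0.23 ± 0.15, adjusted p = 0.73). CA9, the carbonic anhydrase used as a hypoxia marker, went from 2.51, 2.36 and 1.94 to 4.02, 4.25 and 4.37 CPM (0.89 ± 0.20, adjusted p = 0.00035; anastrozole -0.06 ± 0.19, adjusted p = 1.0), and 35.7% of its exon bases overlap a gene on the other strand. ANGPTL4, a lipoprotein lipase inhibitor, went from 53.3, 48.1 and 48.2 to 70.7, 69.6 and 66.3 CPM (0.47 ± 0.05, adjusted p = 1.3e-15). In these 3 genes the estradiol values were all above the vehicle values and overlapped the anastrozole values. P4HA1, a collagen prolyl hydroxylase (0.43 ± 0.04), WSB1 (0.39 ± 0.04), the histone demethylase KDM3A (0.32 ± 0.04), the mitophagy receptor BNIP3 (0.18 ± 0.03) and EGLN3, an oxygen-sensing prolyl hydroxylase (0.46 ± 0.12), were all raised against vehicle with differences from anastrozole between -0.13 and 0.11. Of 16 HIF factors and regulators, 4 were raised and 2 lowered (1 without any single library other than vehicle replicate b or estradiol replicate c), and 3 and 1 after GC adjustment. HIF1A was raised as counted (0.11 ± 0.04, adjusted p = 0.02) but not after GC adjustment (0.03, adjusted p = 0.72) or without replicate a or c of either group (0.058 to 0.19), the asparaginyl hydroxylase HIF1AN, which inhibits HIF, was lowered (-0.14 ± 0.04, adjusted p = 0.0026), the prolyl hydroxylase EGLN1, which marks HIF for degradation, was raised (0.19 ± 0.04, adjusted p = 9.1e-05, with 55.8% of its exon bases shared with another gene on the same strand), and EPAS1, encoding HIF-2α, did not pass (0.05 ± 0.06, adjusted p = 0.73).

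Glycolysis genes had mostly raised members among those that passed. Of 26 glycolysis and glucose uptake genes, 14 (53.8%) were raised and 2 (7.69%) lowered (median 0.09), against 10.5% and 11% of genes of at least 3 log2 CPM. After GC adjustment 15 (57.7%) were raised and none lowered (median 0.13), against 6.47% and 6.63%. Leaving out 1 library gave 11 to 15 raised genes. The lowered count was 0 without vehicle replicate a. Against anastrozole 2 were higher and none lower (median 0.07), where 0.705% and 0.620% of all genes were. After GC adjustment 7 members were higher and none lower (median 0.08). For 9 of 25 members of at least 3 log2 CPM, vehicle lay below the 9 other libraries, and for none above them. The share below was 3.73% of all such genes. PFKFB3, whose product makes the allosteric activator of phosphofructokinase (chr10:6186897-6296607, plus strand, hg19), stood out from the list. It measured 244, 234 and 239 CPM with vehicle, 253, 252 and 265 CPM with anastrozole, 318, 325 and 312 CPM with E2 alone and 358, 354 and 354 CPM with the combination, so that both groups with E2 lay above both groups without it. The rise over vehicle was 0.41 ± 0.03 (adjusted p = 6.2e-31) and that over anastrozole 0.30 ± 0.04 on the log2 scale (adjusted p = 3.6e-11). The neuronal enolase ENO2 rose from 35.1, 37.6 and 39.0 to 53.9, 54.1 and 54.5 CPM (0.54 ± 0.06, adjusted p = 3.5e-17), with a difference from anastrozole of 0.22 ± 0.07 (adjusted p = 0.053) that passed after GC adjustment (0.23, adjusted p = 0.0072). Hexokinase HK2 (0.26 ± 0.04), aldolase ALDOC (0.22 ± 0.03), and the pyruvate dehydrogenase kinases PDK1 (0.32 ± 0.04) and PDK3 (0.30 ± 0.04), which divert pyruvate from mitochondria, were raised. ALDOC was higher than with anastrozole after GC adjustment only (0.13, adjusted p = 0.0012). Of the abundant enzymes, GAPDH rose by 0.11 ± 0.03 (0.22 after GC adjustment), PGK1 by 0.14 ± 0.03 (0.09) and LDHA by 0.11 as counted (adjusted p = 0.0011), a call lost after GC adjustment (0.06, adjusted p = 0.094) and without estradiol replicate b. Against anastrozole LDHA passed after GC adjustment only (0.1, adjusted p = 0.0069). The lowered members were PFKL (-0.14 ± 0.03) and PKM (-0.08 ± 0.03), which had values of 0.00 and -0.02 after GC adjustment. The PFKL call was also lost without vehicle replicate a (adjusted p = 0.062) and the PKM call without any single library other than vehicle replicate b (0.067 to 0.22), and the glucose transporter SLC2A1 did not pass (0.05 ± 0.05, adjusted p = 0.62).

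Promoters of the hypoxia and glycolysis lists were searched because 67.6% and 53.8% of their members were raised. The HIF core motif was taken as ACGTG or GCGTG on either strand in the 300 bases from 250 before to 50 after the most upstream RefSeq start (GRCh38.p14). It occurred in 25 of 31 matched hypoxia-induced promoters (80.6%) and 18 of 25 glycolysis promoters (72%), against 48.4% of all 27305 promoters. Within the glycolysis list 13 of 14 raised members, both lowered members and 3 of 9 that did not pass carried it, while in the hypoxia list 16 of 21 raised members and 9 of 10 that did not pass did. Windows of 70 bases from members described here and from PGK1 and LDHA, where motif copies lie close together, are shown 5′ to 3′ on the gene's strand, with the matches in capitals (CACGT and CACGC are the same motifs on the opposite strand, and CACGTG is also an E-box).
ERO1L (chr14:52695636-52695705, minus strand): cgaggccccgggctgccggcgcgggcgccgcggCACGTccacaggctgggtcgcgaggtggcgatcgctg
LOX (chr5:122078265-122078334, minus strand): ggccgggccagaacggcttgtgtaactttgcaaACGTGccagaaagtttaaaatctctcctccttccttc
CA9 (chr9:35673858-35673927, plus strand): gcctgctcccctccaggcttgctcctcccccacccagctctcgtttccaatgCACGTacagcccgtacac
PGK1 (chrX:78104032-78104101, plus strand): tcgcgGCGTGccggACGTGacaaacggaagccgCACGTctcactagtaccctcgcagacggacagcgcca
LDHA (chr11:18394457-18394526, plus strand): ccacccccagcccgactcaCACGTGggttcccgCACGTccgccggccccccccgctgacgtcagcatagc
These are matches of letters only. A full palindromic estrogen response element, GGTCANNNTGACC, was in none of the 29 matched promoters of the estrogen-induced list and in 18 of all promoters (0.0659%), in windows that do not reach distal sites.

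Interferon-stimulated genes that passed the test were, with 1 exception, lowered. Of 51 interferon-stimulated genes, which encode antiviral effectors and their regulators, 1 (1.96%) was raised and 23 (45.1%) were lowered (median -0.21). The shares were 6.06% and 5.95% of all genes, and 10.5% and 11% of genes of at least 3 log2 CPM. After GC adjustment no member was raised and 18 (35.3%) were lowered (median -0.22). Between 18 and 21 were lowered when 1 library was left out. Against anastrozole 10 were higher with E2 and none lower (median 0.08), where 0.705% and 0.620% of all genes were. Of the members lowered against vehicle, 6 were among the 10. For 19 of the 37 members of at least 3 log2 CPM, all vehicle values were above those of the 9 other libraries, and for none below, against 4.20% of all such genes. MX1, a dynamin-like antiviral GTPase (chr21:42791947-42841998, plus strand, hg19), measured 136, 143 and 138 CPM with vehicle, 94.4, 89.1 and 89.6 CPM with E2, 76.7, 77.9 and 83.9 CPM with anastrozole and 89.4, 89.7 and 96.6 CPM with the combination. E2 was below every vehicle library (-0.61 ± 0.04) and above every anastrozole library (0.19 ± 0.05, adjusted p = 0.021). OAS2, a 2′-5′-oligoadenylate synthetase that activates RNase L, fell from 47, 50 and 49.5 to 32.6, 30.7 and 28.1 CPM (-0.68 ± 0.06, adjusted p = 8.2e-25), with anastrozole at 28.7, 32.5 and 27.4 CPM. Unlike MX1, OAS2 overlapped between E2 and anastrozole (0.04 ± 0.08, adjusted p = 0.94).

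IFI6, an interferon-induced protein of the endoplasmic reticulum and mitochondria (chr1:27992575-27998723, minus strand, hg19), was the list member with the smallest adjusted p against anastrozole. Its values were 152, 134 and 140 CPM with vehicle, 112, 120 and 115 CPM with E2, 76.5, 93.5 and 87.6 CPM with anastrozole and 107, 110 and 108 CPM with the combination. The 3 groups were ordered without overlap as anastrozole, E2 and vehicle, with -0.29 ± 0.04 against vehicle (adjusted p = 1.3e-10) and 0.43 ± 0.05 against anastrozole (adjusted p = 8.8e-16). IFIT1, which binds viral RNA caps, went from 62.9, 58.2 and 57.3 to 41.6, 39.2 and 41.8 CPM (-0.54 ± 0.06, adjusted p = 8.6e-19; anastrozole 0.29 ± 0.08, adjusted p = 0.012). OAS3 (-0.28 ± 0.04 and 0.19 ± 0.04) had the same opposite signs against vehicle and against anastrozole, and passed in each. The interferon regulatory factors IRF9 (-0.26 ± 0.06) and IRF7 (-0.44 ± 0.10) and the ubiquitin ligase TRIM25 (-0.27 ± 0.04) were lowered against vehicle (IRF7 by -0.28 after GC adjustment), with differences from anastrozole between -0.08 and 0.02. ISG15, a ubiquitin-like modifier, was lowered as counted (-0.41 ± 0.10, adjusted p = 0.0017) but not after GC adjustment (-0.27, adjusted p = 0.081). HERC5, the ligase that attaches ISG15, was the raised member (0.43 ± 0.15, adjusted p = 0.041), a call also lost after GC adjustment (adjusted p = 0.11) and without vehicle replicate b (0.13), vehicle replicate c (0.11) or estradiol replicate b (0.44), and was higher than with anastrozole (0.66 ± 0.17, adjusted p = 0.014). The summed immune markers were slightly higher with E2 (12.0 to 14.4 CPM) than with vehicle (8.04 to 11.3 CPM), and the part of immune cells in these values was not tested.

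The core of the interferon-stimulated response element, searched as GAAANNGAAA on either strand in the same windows, occurred in 26 of 41 matched promoters of this list (63.4%) against 3.66% of all promoters. It was in 14 of 20 lowered members and 11 of 20 that did not pass. Windows of 4 lowered members are shown as above, with the matches in capitals (TTTC at both ends marks the opposite strand).
IFI6 (chr1:27672246-27672315, minus strand): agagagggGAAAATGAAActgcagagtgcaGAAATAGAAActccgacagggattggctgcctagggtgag
IFIT1 (chr10:89392490-89392559, plus strand): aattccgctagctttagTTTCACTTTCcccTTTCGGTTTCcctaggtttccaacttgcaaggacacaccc
ISG15 (chr1:1013360-1013429, plus strand): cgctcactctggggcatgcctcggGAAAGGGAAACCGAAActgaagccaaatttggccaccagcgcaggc
BST2 (chr19:17405715-17405784, minus strand): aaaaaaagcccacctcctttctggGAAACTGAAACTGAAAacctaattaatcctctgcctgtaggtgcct
BST2 encodes tetherin, which holds budding virus at the cell surface, and it fell from 291, 269 and 278 to 239, 243 and 240 CPM (-0.22 ± 0.03, adjusted p = 3.4e-08; -0.13 after GC adjustment). All estradiol values were below the vehicle values, and the difference from anastrozole was 0.03 ± 0.04 (adjusted p = 0.89).

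**Figure D4:**
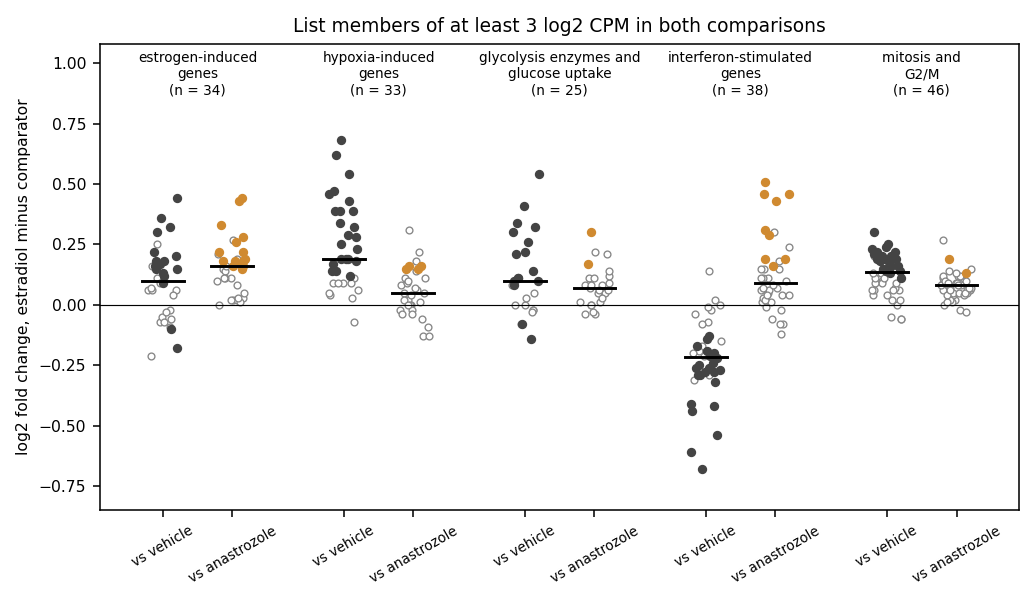
Log2 fold changes of members of 5 gene lists with at least 3 log2 CPM, estradiol against vehicle (left of each pair) and against anastrozole (right). Filled points had an adjusted p under 0.05, and black lines are medians. Fewer hypoxia-induced points are filled against anastrozole than against vehicle, and the filled interferon points lie mostly below 0 against vehicle and above 0 against anastrozole.

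Genes of mitosis had raised members and no lowered ones, with small changes. Of 46 mitosis and G2/M genes, 24 (52.2%) were raised and none lowered (median 0.14), against 10.5% and 11% of genes of at least 3 log2 CPM. This list is low in GC content (median 42.7%). After GC adjustment 12 (26.1%) were raised (median 0.09), against 6.47%. With 1 library left out, 20 to 23 were raised. Against anastrozole 2 were higher and none lower (median 0.08), where 0.705% and 0.620% of all genes were. After GC adjustment 4 members were higher and none lower. In 7 of the 46 members all vehicle values lay below those of the 9 other libraries, and in none above. Among all genes of at least 3 log2 CPM, 3.73% had vehicle below. HMMR, a spindle and hyaluronan-binding protein gene, rose from 98.8, 107 and 101 to 132, 123 and 124 CPM (0.30 ± 0.04, adjusted p = 2.2e-10), and TOP2A, DNA topoisomerase IIα, from 877, 924 and 872 to 1036, 1024 and 1052 CPM (0.22 ± 0.03, adjusted p = 2.4e-12). No estradiol value of either overlapped vehicle, and both remained past the threshold after GC adjustment (0.21 and 0.13). CDK1, the mitotic kinase (0.23 ± 0.03), the kinesin KIF2C (0.24 ± 0.05) and the proliferation marker MKI67 (0.14 ± 0.03) were raised in both analyses, CDK1 by 0.12 after adjustment, and the MKI67 call was lost with limma-voom (adjusted p = 0.052). ANLN, a cytokinesis scaffold, was raised against vehicle (0.21 ± 0.03, and 0.13 after GC adjustment) and was 1 of the 2 members also higher than with anastrozole (0.13 ± 0.04, adjusted p = 0.041). In bulk RNA, more cells in a phase and more RNA per cell cannot be told apart.

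Genes of earlier phases of the cycle were in 2 lists. Of 29 G1 cyclin, CDK and E2F genes, 7 (24.1%) were raised and 1 (3.45%) lowered (4 and 1 after GC adjustment). However, only 1 was raised without vehicle replicate c or estradiol replicate a, and 4 without vehicle replicate a or estradiol replicate c. The largest rise past the threshold was in CDKN2D, an inhibitor of the G1 cyclin D kinases (0.45 ± 0.11, adjusted p = 0.00084), a call lost after random thinning of reads to equal library totals (0.32, adjusted p = 0.077). Of 50 DNA replication genes, 9 were raised and 7 lowered, against 10.5% and 11% of genes of at least 3 log2 CPM, and 4 and 2 after GC adjustment (median 0.03 as counted). Without 1 library they were 5 to 9 raised, lowest without estradiol replicate a or c, and 2 to 6 lowered, lowest without estradiol replicate b. No member of either list was lowered both as counted and after GC adjustment. Against anastrozole none of the 29 and 2 of the 50 passed, and 1 and 3 after GC adjustment. Ribosome biogenesis, which estrogen is known to increase during growth, had 4 raised (10.8%) and 5 lowered (13.5%) of 37 members, near the shares of all genes of at least 3 log2 CPM. Of 41 translation factors 11 (26.8%) were raised and 1 lowered, with 6 and 2 after GC adjustment, 7 raised without vehicle replicate c or estradiol replicate a or c, and 4 lowered without vehicle replicate b. Of 84 cytosolic ribosomal protein genes, 5 (5.95%) were raised and 7 (8.33%) lowered, with 2 and 1 after GC adjustment. These counts depended on the library. None was raised without vehicle replicate c or estradiol replicate c, and 11 were raised without replicate a of either group. None was lowered without vehicle replicate a, and 14 were lowered without vehicle replicate b.

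Sterol synthesis genes moved in both directions. Of 29 mevalonate and cholesterol synthesis genes, 6 (20.7%) were raised (3 without vehicle replicate a) and 8 (27.6%) lowered against vehicle. Among genes of at least 3 log2 CPM, 10.5% were raised and 11% lowered. After GC adjustment 2 members were raised and 5 lowered. Against anastrozole 8 were higher and 1 lower (13 and 1 after GC adjustment, median 0.12 as counted), where 0.705% and 0.620% of all genes were. An isomerase and a feedback regulator were among the raised. The isoprenoid isomerase IDI1 rose from 523, 536 and 520 to 601, 583 and 595 CPM (0.17 ± 0.03, adjusted p = 8.7e-07). INSIG1, which retains the SREBP complex in the endoplasmic reticulum, rose by 0.14 ± 0.04 (adjusted p = 0.0071). Both were also higher than with anastrozole (0.23 and 0.27), but the call of INSIG1 against vehicle was lost after GC adjustment (adjusted p = 0.067) and without vehicle replicate a (0.1) or estradiol replicate b (0.082). The sterol reductase TM7SF2 (-0.30 ± 0.03), the lanosterol synthase LSS (-0.22 ± 0.03), the decarboxylase MVD (-0.27 ± 0.04) and the regulator SREBF1 (-0.29 ± 0.04) fell against vehicle, with differences from anastrozole between -0.13 and 0.12 that did not pass as counted. The GC-adjusted values against vehicle were -0.17 for TM7SF2 and SREBF1 and -0.14 for MVD, all still past the threshold. After GC adjustment LSS and MVD were higher than with anastrozole (0.13 and 0.12, adjusted p = 0.0042 and 0.029). Of 17 fatty acid synthesis genes, 1 (5.88%) was raised (none after GC adjustment) and 4 (23.5%) were lowered, FASN first.

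**Figure D5:**
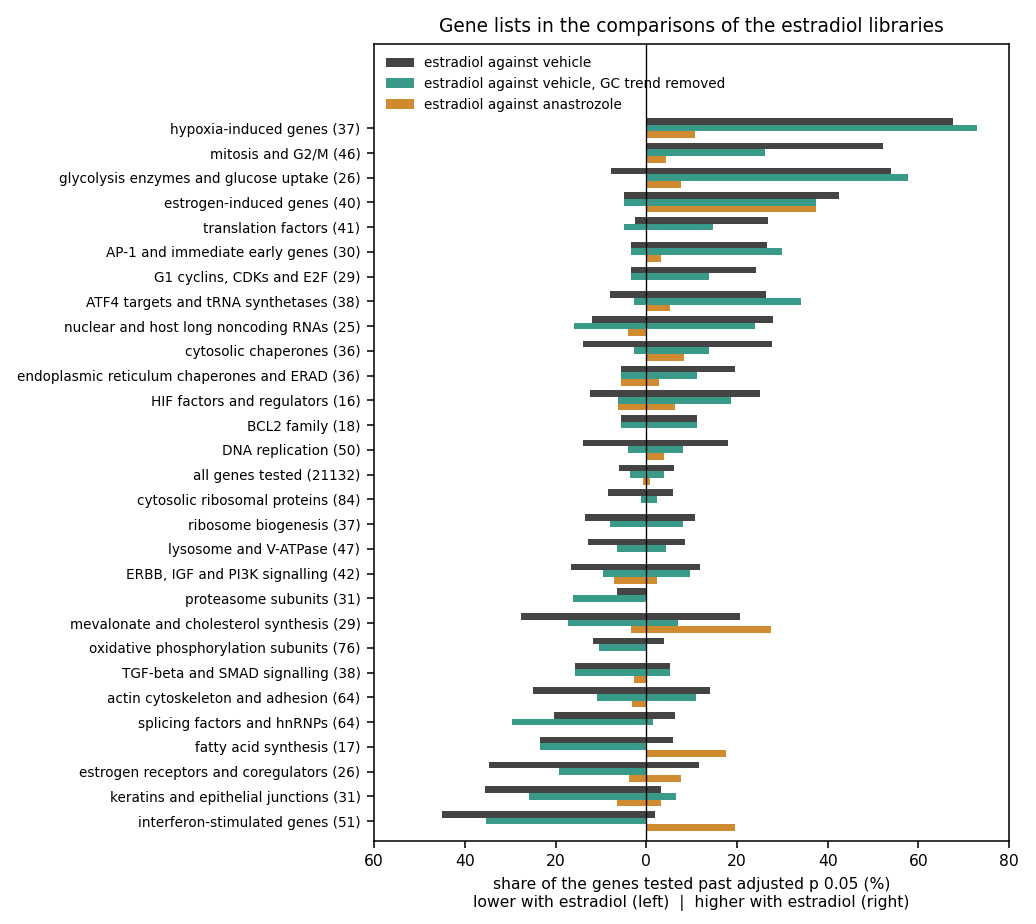
Share (%) of the tested members of each gene list, numbers in parentheses, that passed an adjusted p of 0.05, lower with estradiol to the left and higher to the right, for estradiol against vehicle, the same with the GC trend removed, and estradiol against anastrozole. The estrogen-induced list keeps a similar share in all 3, while the raised share is smaller against anastrozole for the hypoxia, mitosis and glycolysis lists and also for all genes (6.06% against vehicle and 0.705% against anastrozole).

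Genes of epithelial structure had more lowered than raised members. Of 31 keratin and junction genes, 1 was raised and 11 (35.5%) were lowered (7 without vehicle replicate c), and 2 and 8 after GC adjustment. JUP, the junctional plakoglobin, fell from 820, 799 and 843 to 689, 688 and 680 CPM (-0.26 ± 0.03, adjusted p = 3e-16), and the tight junction genes CLDN4 (-0.26 ± 0.03, adjusted p = 4.6e-13) and CLDN3 (-0.29 ± 0.04, adjusted p = 5.8e-12) were lowered too. GC adjustment left JUP at -0.14, CLDN4 at -0.18 and CLDN3 at -0.11 (adjusted p = 0.026), and the CLDN3 call was lost in the fit of all 12 libraries. Against anastrozole 1 member of the list was higher and 2 were lower, and 1 and 3 after GC adjustment. CLDN4 was lower as counted (-0.14 ± 0.04, adjusted p = 0.019), and JUP after GC adjustment only (-0.1, adjusted p = 0.027). KRT19, the most abundant luminal marker, fell by 0.16 on the log2 scale as counted (adjusted p = 2.9e-08), and its GC-adjusted value of -0.05 did not pass (adjusted p = 0.11). In all, 9 of the 14 luminal markers were lowered and none raised as counted. The lowered share was 5.95% of all genes and 11% of genes of at least 3 log2 CPM. A GC-adjusted count of the markers is not given. ERBB2, the receptor HER2 (chr17:37844167-37886679, plus strand, hg19), measured 320, 314 and 342 CPM with vehicle, 297, 293 and 318 CPM with anastrozole, 248, 254 and 250 CPM with E2 alone and 295, 287 and 281 CPM with the combination. The estradiol libraries were below all 9 others (-0.37 ± 0.03 against vehicle and -0.28 ± 0.04 against anastrozole, adjusted p = 3.4e-09 for the latter), and the GC-adjusted value against vehicle was -0.29. ERBB3 fell by less (-0.12 ± 0.03), and PIK3R1, the regulatory subunit of PI3-kinase, fell from 144, 148 and 141 to 124, 119 and 120 CPM (-0.26 ± 0.04, adjusted p = 2.2e-08), both also lower than with anastrozole (-0.16 and -0.18). Over the 42 ERBB, IGF and PI3K genes, 5 (11.9%) were raised and 7 (16.7%) lowered, against 10.5% and 11% of genes of at least 3 log2 CPM, with 4 and 4 after GC adjustment and 8 and 8 without vehicle replicate b.

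Raised members outnumbered lowered ones among stress and early response genes. Of 30 AP-1 and immediate early genes, 8 (26.7%) were raised and 1 (3.33%) lowered (median 0.21), almost unaltered by GC adjustment (9 and 1, median 0.21). The shares were 6.06% and 5.95% of all genes, and 10.5% and 11% of genes of at least 3 log2 CPM. Against anastrozole 1 member was higher (median 0.10), and 4 after GC adjustment. The member higher as counted was KLF10, a TGF-β-inducible early gene known as an estrogen target, which rose from 55.9, 59.8 and 56.6 to 83.8, 86.7 and 76.7 CPM (0.52 ± 0.05, adjusted p = 3.8e-22; anastrozole 0.21 ± 0.05, adjusted p = 0.0086). ATF3, a stress-induced transcription factor, rose from 29.8, 26.9 and 30.2 to 39.8, 39 and 38 CPM (0.43 ± 0.07, adjusted p = 1.1e-08), and the antiproliferative BTG2 by 0.32 ± 0.06. The phosphatase DUSP5 was the lowered member (-0.31 ± 0.08, adjusted p = 0.0027). Of 38 ATF4 target and tRNA synthetase genes, 10 (26.3%) were raised and 3 (7.89%) lowered (1 without estradiol replicate c), and 13 and 1 after GC adjustment. Against anastrozole 2 of them were higher and none lower, and 3 and none after GC adjustment. In this list DDIT3, encoding CHOP, rose by 0.36 ± 0.06 (adjusted p = 4.8e-09), asparagine synthetase ASNS by 0.33 ± 0.06 and the mitochondrial folate enzyme MTHFD2 by 0.24 ± 0.04, and none of the 3 passed against anastrozole (0.03, 0.19 and 0.09). A gene on the other strand overlaps 31.6% of the exon bases of DDIT3. Of the exon bases of ASNS, 49.3% are shared with another gene on the same strand.

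Apart from the lists, genes with the smallest adjusted p against anastrozole are given with both comparisons, which share the estradiol libraries. B4GALT1, a galactosyltransferase of the Golgi (chr9:33104080-33167354, minus strand, hg19), measured 423, 428 and 423 CPM with vehicle, 411, 422 and 428 CPM with anastrozole, 541, 536 and 533 CPM with E2 alone and 535, 550 and 544 CPM with the combination. Every library with E2 was above every library without it (0.34 ± 0.03 and 0.34 ± 0.04). MYBL1, a MYB family transcription factor, rose from 118, 143 and 130 to 172, 165 and 174 CPM (0.39 ± 0.04, and 0.37 ± 0.04 against anastrozole), and KCNMA1, the large-conductance calcium-activated potassium channel, fell from 67, 64.9 and 62.1 to 45.4, 50 and 51.4 CPM (-0.40 ± 0.05 and -0.52 ± 0.06). Further down that ranking, and chosen after their values were seen, RUNX1, a transcription factor (0.37 ± 0.05 and 0.40 ± 0.05), SDC2, a cell surface proteoglycan (0.25 ± 0.04 and 0.38 ± 0.05), and SERPINA6, the corticosteroid-binding globulin (0.22 ± 0.03 and 0.23 ± 0.03), were raised, while FBXO32, a ubiquitin ligase component of muscle wasting (-0.32 ± 0.04 and -0.34 ± 0.04), and VTCN1, the immune checkpoint ligand B7-H4 (-0.53 ± 0.05 and -0.40 ± 0.06), were lowered. The glucose-responsive gene TXNIP was raised against vehicle (0.34 ± 0.03, adjusted p = 1.2e-23) and lower than with anastrozole (-0.15 ± 0.04, adjusted p = 0.012), with 365, 361 and 371 CPM in vehicle, 469, 466 and 453 CPM in E2 and 540, 508 and 480 CPM in anastrozole. Its E2 values thus lay between those of the other 2 groups.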

How the data were processed

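Gene counts were deposited by the authors as whole numbers without normalization, and per the submitters' processing notes reads were aligned to hg19 with TopHat2 2.0.14 and Bowtie2 2.2.6 and counted with HTSeq. The strand setting and gene annotation of the counting are not given in the sources used here, so genes overlapping on opposite strands may share reads. The labels name polyA RNA and the methods total RNA. The 5 summary lines were left out of library sizes, and between 32.7% and 33.4% of the reads of the 6 libraries were on genes, with 58.6% to 59.9% in no feature.

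Genes at 0 in all 12 libraries (4238) were removed. Each comparison used edgeR 4.0.16 on its own 6 libraries (TMM, robust quasi-likelihood F test, 2-sided, Benjamini-Hochberg over 21132 genes, threshold 0.05) in R 4.3.3, without a replicate block. Values are TMM-normalized CPM. Standard errors were derived from the F statistic (log2 fold change over its square root). GC trends were removed per library with lowess (span 0.5, genes of at least 3 log2 CPM) as an offset, which also removes true change that follows GC content. GC content and hg19 positions came from GENCODE release 44 mapped to GRCh37 (21539 genes matched by symbol, 1498 by an older symbol, 2333 not matched), and promoters from RefSeq. DESeq2 1.42.0 and limma 3.58.1 were used as alternatives. On simulated counts with 50 changed genes per fold, the test found 78% of 1.25-fold and 98% of 1.5-fold changes, with 12 false calls. Only genes of at least 3 log2 CPM were changed, and the simulated counts held no GC trend. Recovery of scarcer genes, of smaller changes or under such a trend was not simulated.

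The gene lists, the markers and the choice of comparisons were made with earlier results of these data known. Genes were named by the largest changes of genes of at least 3 log2 CPM with separate groups, the smallest p-values among all genes, per list and against anastrozole, and a fixed set of estrogen and HIF genes. Other list members named were picked from the lists after their values were seen. Some members of the gene lists are counted but not reported here by name.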

Additional observations from a re-analysis of the deposited data

How the results depend on the processing

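The count of genes past the threshold against vehicle, 2537, fell to 1433 (634 raised, 799 lowered) with DESeq2's Wald test, which gave 11419 genes no adjusted p, 263 of the 2537 among them, 1379 (684, 695) with limma-voom, 1601 (847, 754) with the GC trend removed and 1508 (801, 707) with the GC trend removed and the replicate block. Leaving out 1 library gave 1741 to 2808 (883 to 1417 raised, 858 to 1391 lowered). Other alternatives stayed within 1.5 times. Against anastrozole, 280 became 160 with filterByExpr, 152 with at least 3 log2 CPM, 107 with DESeq2, 178 with edgeR's exact test, 70 with limma-voom, 180 with the replicate block, 495 with the GC trend removed, 421 with both, and 107 to 414 without 1 library. The letters a, b and c did not pair the libraries (correlations of deviations -0.0915, -0.0894 and -0.0736), and the block gave 2207 genes against vehicle. CTSD reversed to 0.0394 with the GC trend removed and 0.0393 with the block added, and PFKL to 0.000281 and 0.00153. The causes were not tested.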

Other observations

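Several long noncoding RNAs passed the test against vehicle. Of 25 nuclear and small nucleolar RNA host transcripts, 7 (28.0%) were raised and 3 (12.0%) lowered (1 without vehicle replicate a), and 1 was lower than with anastrozole. Among genes of at least 3 log2 CPM, 10.5% were raised and 11% lowered. The lowered share was thus near that of all such genes. H19, the imprinted transcript, rose from 30.3, 25.6 and 27.1 to 36.7, 37 and 35.5 CPM (log2 fold change 0.40 ± 0.07, adjusted p = 4.1e-07 by edgeR), and the growth arrest transcript GAS5 measured 250, 241 and 244 CPM with vehicle and 253, 294 and 307 CPM with E2. The GAS5 difference of 0.22 passed with edgeR (adjusted p = 2.6e-08) but not with filterByExpr (0.052), DESeq2 (0.055), limma-voom (0.072) or the fit of all 12 libraries (0.26). FTX, of the X inactivation centre, went from 4.53, 3.27 and 4.12 to 2.6, 2.3 and 1.87 CPM (-0.81 ± 0.21, adjusted p = 0.0019, but 0.064 with libraries thinned to the smallest total), and its antisense neighbour JPX by -0.62 ± 0.21 (adjusted p = 0.037), a call lost without replicate a of either group, vehicle replicate c or estradiol replicate b (0.12 to 0.21). The exons of FTX and JPX overlap on opposite strands (31.6% and 52.4% of bases), so their reads may not be separable. H19 kept separate groups, and the differences of H19, FTX and JPX from anastrozole did not pass.

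In the TGF-β and SMAD list of 38 genes, 2 (5.26%) were raised (1 without vehicle replicate a or estradiol replicate c) and 6 (15.8%) lowered (3 without vehicle replicate c). GC adjustment gave the same counts of members, but only 1 raised and 4 lowered members passed in both analyses. The shares as counted were 6.06% and 5.95% of all genes, and 10.5% and 11% of genes of at least 3 log2 CPM. SMAD9, a receptor-regulated SMAD of the BMP branch, rose 1.96-fold from 2.67, 2.51 and 2.96 to 5.84, 4.61 and 5.69 CPM (0.97 ± 0.18, adjusted p = 6.9e-06), and INHBB, the inhibin βB subunit, fell from 79.8, 74.7 and 73.9 to 62.5, 58.7 and 59.6 CPM (-0.34 ± 0.05, adjusted p = 3.4e-09; against anastrozole past the threshold after GC adjustment only, -0.17, adjusted p = 0.047). Of 18 BCL2 family genes, 2 (11.1%) were raised, where 6.06% of all genes and 10.5% of genes of at least 3 log2 CPM were, among them PMAIP1, the BH3-only protein NOXA (0.49 ± 0.14, adjusted p = 0.0068, but 0.068 without vehicle replicate a and 0.072 without estradiol replicate a), and 1 was lowered. Of 64 splicing factors, 4 (6.25%) were raised and 13 (20.3%) lowered, against 10.5% and 11% of genes of at least 3 log2 CPM. After GC adjustment 1 was raised and 19 (29.7%) were lowered, against 6.63% of such genes lowered. In both analyses 7 were lowered. Without vehicle replicate c 8 were lowered. HNRNPM (-0.29 ± 0.04) and SNRPB (-0.22 ± 0.04) were among the lowered. Of 76 oxidative phosphorylation genes, 3 (3.95%) were raised and 9 (11.8%) lowered, where 10.5% and 11% of genes of at least 3 log2 CPM were. GC adjustment gave none and 8. None was lowered without vehicle replicate a, 1 without estradiol replicate a, 4 without estradiol replicate b and 13 without vehicle replicate b, and 6 were raised without vehicle replicate a and 1 without estradiol replicate c. Of 31 proteasome genes, 2 (6.45%) were lowered, a share under the 11% of genes of at least 3 log2 CPM. None was lowered without vehicle replicate a, 5 were without vehicle replicate b, 4 without estradiol replicate c and 5 after GC adjustment.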
